A study of Mus musculus with 24 samples.

Results

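Of the 12224 rows of the deposited expression table, 264 carried a gene name made of Zfp and a number alone, and these mouse zinc finger protein genes are described here. Zfp36, which binds AU-rich mRNA and is no member of the DNA-binding class, was left out, as were 19 rows that joined a numbered Zfp name with another name. The rule used names only and no measured value, but it was set with earlier results of these data known. Of the 264 genes, 259 reached a mean of 1 scaled unit over all libraries and were tested among 11557 rows. Scaled units are the deposited values, per gene length, multiplied by 1 constant so that the mean library total was 1000000. The 5 genes under that level were Zfp2, Zfp459, Zfp872, Zfp667 and Zfp526, with means of 0.918, 0.912, 0.895, 0.532 and 0.108 scaled units, and the lowest tested gene was Zfp112 at 1.10.

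C2H2 zinc fingers are short protein modules held by a zinc ion, and tandem arrays of them can bind particular DNA sequences. Many mammalian arrays sit behind a KRAB box, which recruits the co-repressor TRIM28 and through it the histone methyltransferase SETDB1 and heterochromatin proteins. A number of these KRAB proteins silence retroelements or guard imprinted loci. Zfp is a name and not a family, so the class also holds transcription factors without KRAB, ribosome assembly factors and RNA-binding proteins. Several of the genes lie in clusters of tandem duplicates, and such copies can share sequence.

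The cells were mpkCCD, an epithelial line from the mouse cortical collecting duct, grown for 9 days on permeable inserts without dDAVP, a vasopressin analogue, and then kept for 24 h in simple medium. Cells with intact Gpr39 (WT) and cells with a Gpr39 knockout (KO) were exposed on the basolateral side for 2 h to 1 µM cpd1324, which activates the zinc-responsive receptor GPR39, or to 0.1% DMSO as vehicle. Both arms of both genotypes received 10 µM ZnCl2, so zinc was common to all 24 libraries. Each of the 4 groups had 6 poly(A)-selected libraries. The labels do not say whether these were separate cultures, so p-values measure the spread between these samples alone, nor how many KO clones there were or which part of Gpr39 was edited. In a bulk culture, fewer cells of one kind and less RNA per cell cannot be told apart.

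Whole reads recovered from the values came to 29.8 to 51.9 M per library, of which 171993 to 380899 fell on the 264 genes. Read totals did not separate the arms (exact permutation test, two-sided, p = 0.801 in WT and p = 0.318 in KO cells). The level of Gpr39 was 21.6 ± 1.61 scaled units (SD, n = 6) in WT vehicle, 29.2 ± 1.33 in WT agonist, 9.37 ± 0.645 in KO vehicle and 9.40 ± 0.882 in KO agonist libraries, so its transcript was lower but present in the KO cells. Of 16 collecting duct markers, 13 were in the table at 3.71 to 3097 scaled units. Of 20 markers of other kidney, endothelial, immune and stromal cells, 5 were, and the 4 tested stood at 1.26 to 32.8. With agonist in WT cells 3 of the 13 collecting duct markers rose (23.1%) and 6 fell (46.2%), against 28.6% of all rows in each direction. Krt18, Cdh1 and Epcam rose, and among those that fell Scnn1g fell by 1.35 and Avpr2 by 0.94 on the log2 scale. Of the 4 other markers, Cd68 and Lrp2 rose, by 0.53 and 0.54 on the log2 scale, 0 fell, and Col1a1 and Slc12a3 did not pass the test. The part of any of these markers in the results below was not tested.

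The GPR39 agonist was followed within 2 h by lower transcript levels of most numbered Zfp genes in WT cells. Of the 259 genes tested, 187 fell and 23 rose (limma, two-sided, Benjamini-Hochberg adjusted p under 0.05 over all 11557 rows). Among all rows, 28.6% were lower, against 72.2% of the Zfp genes, and 28.6% were higher, against 8.88%. The median log2 fold change, a difference of log2(scaled units + 0.5), was -0.38 over the Zfp genes and -0.01 over all rows. The middle of the distribution ran from -0.61 to -0.12 (lower and upper quartile), and the extremes were -1.29 and 1.24.

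The larger changes leaned the same way. A fall of at least 1.5-fold past the adjusted threshold was met by 69 Zfp genes (26.6%) against 5.43% of all rows, and a rise of that size by 6 (2.32%) against 7.54%. All 6 agonist libraries lay below all 6 vehicle libraries for 151 of the called genes (58.3%, against 17.3% of all rows). They lay above for 20 (7.72%, against 19.4%). The mean WT library total was 965380 scaled units with vehicle and 1142000 with agonist. When every library was instead given the same total, the median over all rows moved to -0.24 and that over the Zfp genes to -0.61. Then 222 of the 259 Zfp genes were lower and 13 higher, against 6944 and 1433 of all 11557 rows. Under the deposited scaling 43 of the 259 genes lay above the median of all rows, and under equal totals 44 did.

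As a share of all recovered reads, the 264 genes held 0.729% ± 0.0127 (SD, n = 6) in WT vehicle and 0.534% ± 0.0249 in WT agonist libraries. The WT agonist libraries ran from 0.509 to 0.574% and the WT vehicle libraries from 0.710 to 0.742%, with no overlap. In KO cells the share was 0.745% ± 0.0282 with vehicle and 0.730% ± 0.0178 with agonist, and these ranges overlapped. In scaled units the summed level was 5063 ± 83.6 in WT vehicle, 4483 ± 112 in WT agonist, 5117 ± 150 in KO vehicle and 4938 ± 91.9 in KO agonist libraries.

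By counts, the fall covered a larger share of the genes that encode a KRAB box than of the others. A KRAB box was called in 158 genes and not in 103 from the annotated coding sequences of GRCm38, and 3 genes had no coding sequence there. Of 155 tested KRAB genes, 132 fell and 6 rose in WT cells, with a median log2 fold change of -0.51. Of 101 genes without KRAB, 53 fell and 17 rose, with a median of -0.19. The reads of the KRAB genes went from 0.273% ± 0.00840 of the WT vehicle libraries to 0.172% ± 0.00855 with agonist. Those of the genes without KRAB went from 0.452% ± 0.00969 to 0.360% ± 0.0166.

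**Figure D1:**
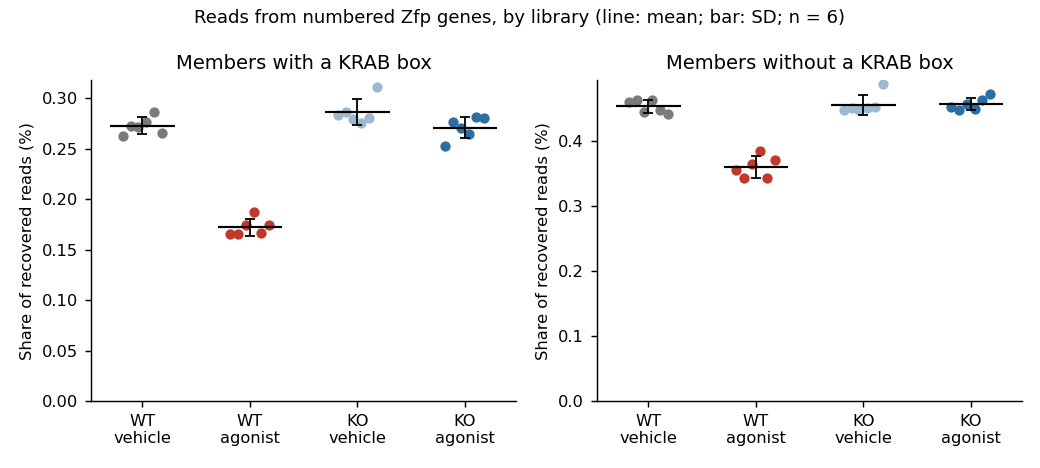
Share of all recovered reads (%, vertical axis from 0) held by KRAB genes (left) and genes without KRAB (right) in each of 24 libraries, grouped by genotype and treatment, with lines at the mean and bars of 1 SD (n = 6). The WT agonist libraries lie below all others in both panels, at 0.165 to 0.187% for KRAB genes.

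Scaled sums showed the same order with a smaller difference for the genes without KRAB. The KRAB genes summed to 2100 ± 74.8 scaled units in WT vehicle and 1614 ± 52.8 in WT agonist libraries, whereas the others summed to 2943 ± 22.5 and 2856 ± 61.4. In KO cells the KRAB sums were 2164 ± 85.4 with vehicle and 2029 ± 75.03 with agonist.

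KRAB genes were expressed at a lower level than the others (median 8.52 against 21.5 scaled units), and the share of all rows that fell varied with level, so both classes were read within bands of level. Between 1 and 5 scaled units, 86.0% of 50 KRAB genes fell, 62.5% of 8 genes without KRAB and 31.9% of all rows. Between 5 and 20 units the shares were 86.3% of 73, 64.3% of 42 and 40.1% of all rows. At 20 units or more they were 81.3% of 32, 41.2% of 51 and 23.7% of all rows. In each band the share that fell was highest in the KRAB genes and lowest in all rows.

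The number of fingers moved with the class. KRAB genes had a median of 12 fingers and the others 8, and 4 genes (Zfp839, Zfp703, Zfp330 and Zfp185) matched no finger pattern. Of 45 genes with 16 or more fingers 36 fell and 0 rose, whereas of 47 genes with 0 to 5 fingers 25 fell and 10 rose. Within the KRAB class 85.7% of 49 genes with 6 to 10 fingers fell. Among genes without KRAB 17 of 37 with up to 5 fingers and 36 of 64 with 6 or more fell. All 7 genes that matched a sequence pattern of the SCAN domain, a dimerisation module, fell (Zfp174, Zfp213, Zfp263, Zfp24, Zfp397, Zfp444 and Zfp202). Their log2 fold changes ran from -0.83 in Zfp174 to -0.29 in Zfp202. SCAN domains that depart from the pattern would be missed, so other genes may carry one.

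**Figure D2:**
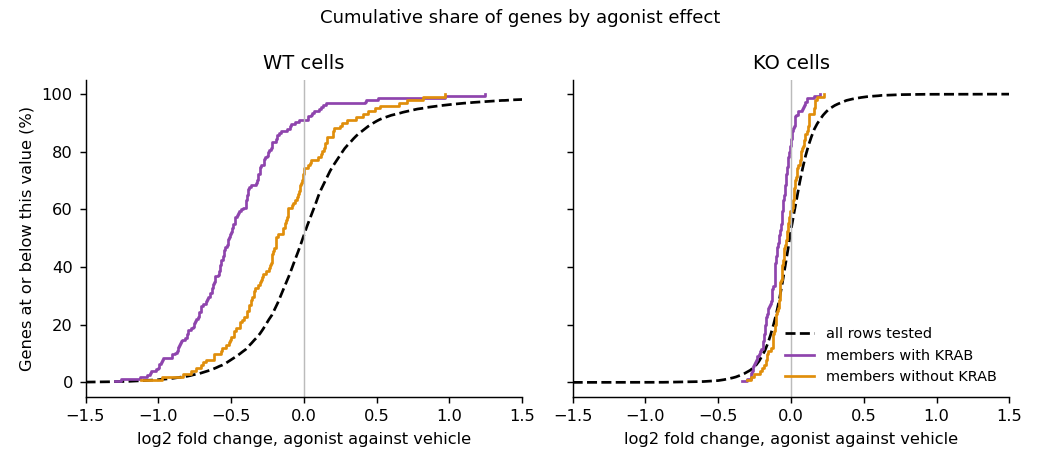
Cumulative share of genes (%, vertical axis) at or below each log2 fold change with agonist (horizontal axis) in WT cells (left) and KO cells (right), for all tested rows (dashed), 155 KRAB genes and 101 genes without KRAB. In WT cells the KRAB curve lies farthest to the left (median -0.51), while in KO cells the 3 curves lie close together (medians -0.08, -0.03 and -0.01).

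The gene with the lowest fold change was Zfp937, a KRAB gene with 14 fingers on chromosome 2. Its lowest, median and highest values were 13.1, 14.7 and 17.7 scaled units in WT vehicle and 4.99, 5.72 and 7.00 in WT agonist libraries. In KO cells they were 19.6, 20.9 and 28.8 with vehicle and 16.4, 19.9 and 21.0 with agonist. The WT groups were far apart and the KO groups overlapped. The log2 fold change with agonist was -1.29 ± 0.09 (SE, adjusted p = 1.34e-11) in WT and -0.19 ± 0.09 (adjusted p = 0.193) in KO cells. Zfp442, a few genes away on the same chromosome, had 6.57, 7.39 and 8.19 units in WT vehicle and 2.83, 3.28 and 3.66 in WT agonist libraries (log2 fold change -1.05 ± 0.08, adjusted p = 2.49e-11). Zfp937 and Zfp442 shared 31.5% and 32.3% of their 50-base words with another gene, most of all with each other, so part of their reads could be split between them.

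The promoters of the 4 genes with the lowest and the 3 with the highest fold change are shown, as the 2 ends of the response, with that of Zfp442, the neighbour of Zfp937. Each run holds the 150 bases before a RefSeq start on GRCm38.p6, the annotation used here for sequence, 5′ to 3′ on the gene's strand, and all annotated starts of a gene are given. Capitals mark CCAAT on either strand, the letters bound by NF-Y. The positions are chr2:150217949-150218098 (+) for Zfp937, chr2:150451502-150451651 (-) for Zfp442, chr8:85123096-85123245 and chr8:85119692-85119841 (-) for Zfp791, chr17:33033382-33033531 (-) for Zfp763 and chr11:70764297-70764446 (+) for Zfp3. For the genes that rose they are chr17:37003516-37003665, chr17:37001013-37001162 and chr17:37002375-37002524 (+) for Zfp57, chr1:136624751-136624900 (+) for Zfp281 and chr17:21566828-21566977 (+) for Zfp948.
Zfp937: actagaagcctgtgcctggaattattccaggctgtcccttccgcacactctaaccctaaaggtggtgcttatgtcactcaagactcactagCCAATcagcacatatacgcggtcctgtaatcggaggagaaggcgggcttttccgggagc
Zfp442: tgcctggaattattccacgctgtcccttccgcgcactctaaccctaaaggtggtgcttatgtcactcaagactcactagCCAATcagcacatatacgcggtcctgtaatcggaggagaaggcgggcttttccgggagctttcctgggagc
Zfp791 start 1: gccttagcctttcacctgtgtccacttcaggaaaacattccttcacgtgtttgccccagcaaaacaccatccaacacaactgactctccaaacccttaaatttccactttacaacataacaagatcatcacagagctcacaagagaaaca
Zfp791 start 2: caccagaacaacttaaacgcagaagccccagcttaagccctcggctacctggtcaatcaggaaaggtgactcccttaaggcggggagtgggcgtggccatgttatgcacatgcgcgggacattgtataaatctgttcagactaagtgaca
Zfp763: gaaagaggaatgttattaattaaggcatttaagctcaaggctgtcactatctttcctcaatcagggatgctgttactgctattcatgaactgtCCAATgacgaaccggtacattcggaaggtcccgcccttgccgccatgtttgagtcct
Zfp3: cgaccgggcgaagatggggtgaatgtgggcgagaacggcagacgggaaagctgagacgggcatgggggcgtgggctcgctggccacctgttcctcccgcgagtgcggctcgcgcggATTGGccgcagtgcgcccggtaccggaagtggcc
Zfp57 start 1: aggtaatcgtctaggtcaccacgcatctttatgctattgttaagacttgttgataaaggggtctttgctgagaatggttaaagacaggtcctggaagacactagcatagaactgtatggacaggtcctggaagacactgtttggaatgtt
Zfp57 start 2: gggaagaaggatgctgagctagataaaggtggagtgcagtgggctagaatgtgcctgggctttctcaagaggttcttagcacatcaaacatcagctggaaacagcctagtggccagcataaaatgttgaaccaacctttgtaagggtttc
Zfp57 start 3: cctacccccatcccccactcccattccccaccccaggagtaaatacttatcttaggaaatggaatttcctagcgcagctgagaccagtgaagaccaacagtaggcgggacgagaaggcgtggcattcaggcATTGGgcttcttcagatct
Zfp281: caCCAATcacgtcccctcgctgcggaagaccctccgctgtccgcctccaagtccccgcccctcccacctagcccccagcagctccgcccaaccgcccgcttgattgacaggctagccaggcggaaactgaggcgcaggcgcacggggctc
Zfp948: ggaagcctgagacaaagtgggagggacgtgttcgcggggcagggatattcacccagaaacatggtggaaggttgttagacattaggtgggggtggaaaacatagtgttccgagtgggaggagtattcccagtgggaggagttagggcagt

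The windows of Zfp937 and Zfp442 share a run of 105 identical bases that includes the CCAAT letters. Both windows of Zfp791 and that of Zfp948 lack these letters. Such windows were looked up for the 8 lowest and 8 highest fold changes except Zfp964 and Zfp330. Among the genes looked up, 7 of the lowest and 6 of the highest had windows, and 5 and 4 of these held CCAAT in at least 1 of them. Of all 264 genes, 225 matched the RefSeq table, with 279 windows of 300 bases (250 before to 50 after a start). CCAAT, searched on both strands, was present in 47.7% of the 279 Zfp windows and 37.4% of 11304 windows of tested rows. By window it was in 51.8% of 193 windows of genes that fell and 40.7% of 27 windows of genes that rose. Some genes have several windows, and by gene this order was not kept. At least 1 window held CCAAT in 89 of 161 genes that fell and 11 of 19 that rose, against 3774 of 8767 genes of tested rows. The GC box GGGCGG was in 40.4% of windows of genes that fell, 70.4% of those that rose and 63.3% of those of tested rows.

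Other letters gave smaller counts. The ETS letters CCGGAAG were in 22.2% of the Zfp windows, 17.9% of the windows of tested rows and 8.86% of all 32841 mouse windows. The cyclic AMP response element TGACGTCA was in 11 Zfp windows (3.94%), with 2.59% in windows of genes that fell, 3.10% in those of tested rows and 1.79% in all. The AP-1 letters TGANTCA were in 9 Zfp windows (3.23%), against 5.22% of the windows of tested rows and 7.81% of all. The median GC content was 54.0% in windows of genes that fell, 61.7% in those of genes that rose and 61.0% in those of tested rows, and GC content bears on how often GC-rich letters occur. A match is a description of the sequence only.

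Zfp791, a KRAB gene with 15 fingers, had the next lowest fold change. It stood at 8.30, 8.82 and 9.94 scaled units (lowest, median, highest) in WT vehicle and at 2.80, 3.49 and 4.27 in WT agonist libraries (log2 fold change -1.25 ± 0.08, adjusted p = 7.08e-13). In KO cells it stood at 8.44, 10.4 and 10.8 with vehicle and 8.86, 9.55 and 11.0 with agonist. The WT agonist libraries were below every other library. Zfp3, which has 13 fingers and no KRAB box, went from 6.95, 7.18 and 7.61 units to 2.51, 2.94 and 4.23 in WT cells (-1.12 ± 0.08, adjusted p = 1.49e-11), so genes with a fall of this size included one without KRAB. In KO cells Zfp3 was at 7.14 to 8.81 with vehicle and 7.04 to 7.93 with agonist.

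The remaining genes of the lowest 8 were all KRAB genes at low levels. Zfp763, Zfp964, Zfp563 and Zfp551 had WT vehicle medians of 4.98, 5.66, 7.42 and 4.64 scaled units and WT agonist medians of 1.93, 2.41, 3.34 and 2.09. Their log2 fold changes were -1.12, -1.08, -1.05 and -1.02, and their adjusted p-values ran from 7.73e-08 for Zfp763 to 2.65e-12 for Zfp563. Non-overlap of the WT groups was a condition of naming these 4 genes.

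Zfp7 was the most abundant gene with a fall near 2-fold. It had 70.4, 82.5 and 86.1 scaled units in WT vehicle and 36.2, 41.0 and 44.8 in WT agonist libraries (log2 fold change -0.98 ± 0.06, adjusted p = 7.86e-14). KO vehicle libraries lay at 67.9 to 76.9 and KO agonist libraries at 57.6 to 67.9, so the KO groups did not overlap by a small margin (-0.19 ± 0.06, adjusted p = 0.0317). Zfp12, Zfp53 and Zfp873 fell by 0.91, 0.85 and 0.85 on the log2 scale in WT cells and had log2 fold changes of -0.03, -0.08 and -0.02 in KO cells, none past the threshold.

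**Figure D3:**
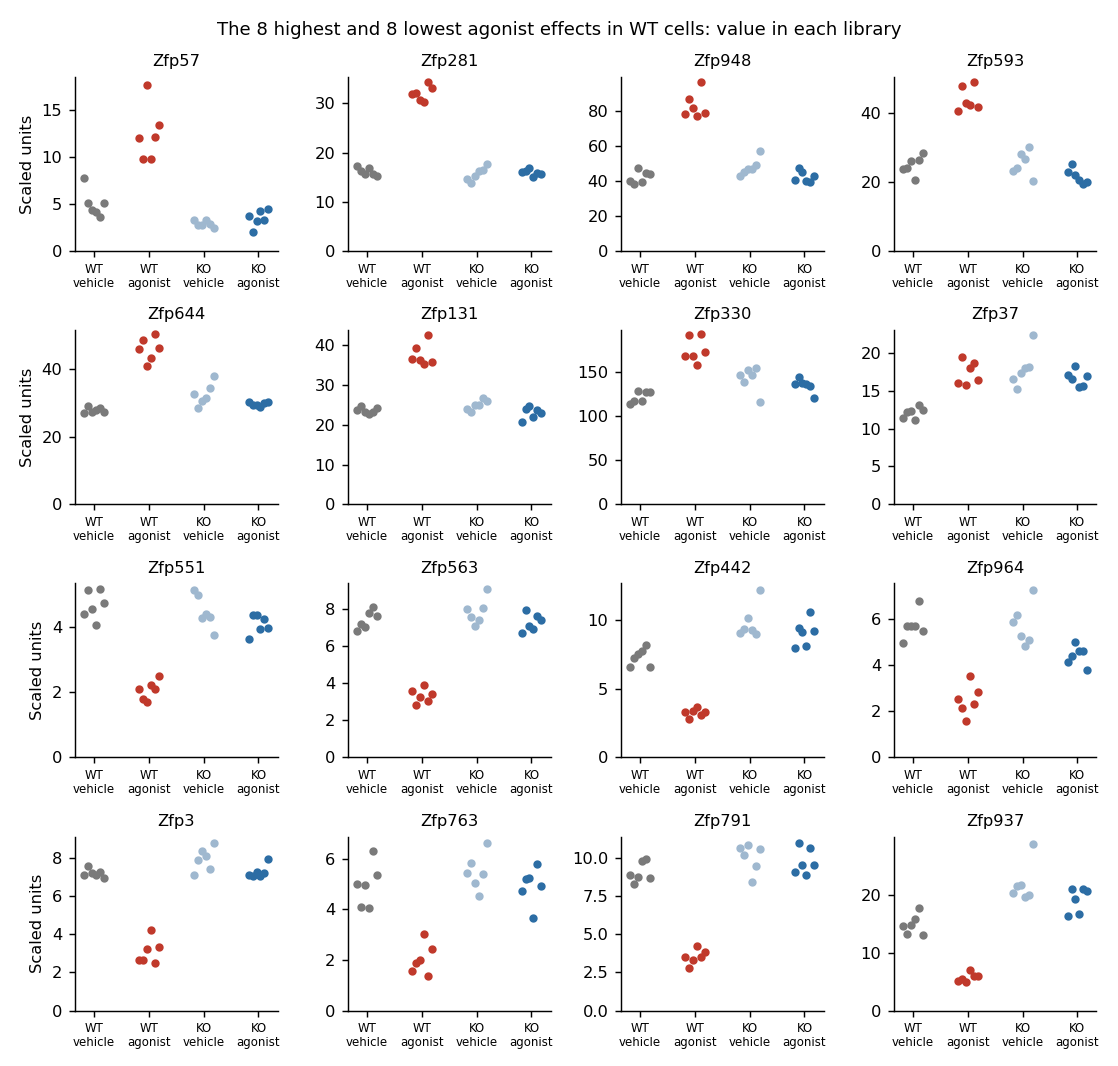
Scaled units (vertical axes from 0) in each of 24 libraries for the 8 highest and the 8 lowest log2 fold changes with agonist in WT cells, ordered from Zfp57 to Zfp937, with 1 point per library and 6 per group. Only called genes whose WT agonist and WT vehicle libraries do not overlap were eligible, so these groups stand apart in all 16 panels by selection. The 2 KO groups overlap in all 16.

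The fall ran through most clusters of neighbouring Zfp genes. Clusters were set by gene order on GRCm38.p6, with at most 5 other protein-coding genes between neighbours and at least 6 tested genes. In this way 7 clusters held 72 of the 259 genes, of which 60 fell and 2 rose. Among all rows, 28.6% fell and 28.6% rose. All 14 genes of the chromosome 13 cluster from Zfp712 to Zfp273 fell (median log2 fold change -0.61). All 6 from Zfp871 to Zfp563 on chromosome 17 fell (median -0.86), as did all 7 from Zfp786 to Zfp746 on chromosome 6 (median -0.48). The chromosome 7 clusters were more mixed. From Zfp180 to Zfp94, 6 of 7 fell (median -0.61), and from Zfp553 to Zfp689, 4 of 6 (median -0.61). From Zfp84 to Zfp146, 8 of 13 fell and 1 rose (median -0.39).

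The other chromosome 17 cluster, 19 KRAB genes from Zfp160 to Zfp13, held 15 that fell and 1 that rose. The riser was Zfp948, between Zfp52 (log2 fold change -0.06) and, after an interval without tested Zfp genes, Zfp760 (-0.63). On the other side of Zfp52, Zfp53 fell by 0.85. Outside the clusters 127 of 187 genes fell and 21 rose, and 77 of the 90 KRAB genes there fell. Tandem neighbours can share sequence, so they are not independent measurements. Of the 24 genes that shared over 20% of their 50-base words with other genes, all of them KRAB genes, 22 fell and 0 rose. Of the 234 with less, 164 fell and 23 rose.

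Zfp57 rose most. Its protein binds methylated imprinting control regions and keeps their methylation. It had 3.61, 4.73 and 7.71 scaled units in WT vehicle and 9.79, 12.1 and 17.7 in WT agonist libraries (log2 fold change 1.24 ± 0.16, adjusted p = 4.31e-07). In KO cells it was lower, at 2.42, 2.82 and 3.34 with vehicle and 1.97, 3.52 and 4.45 with agonist. The WT groups did not overlap, as the naming rule required, and the KO groups did (0.20 ± 0.16, adjusted p = 0.441).

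Zfp281, a factor that binds G-rich promoters and acts in embryonic stem cells, had the smallest adjusted p among the risers. It went from 15.2, 16.0 and 17.4 scaled units in WT vehicle to 30.4, 32.0 and 34.3 in WT agonist libraries (log2 fold change 0.97 ± 0.05, adjusted p = 1.57e-14). KO cells held 13.8 to 17.6 with vehicle and 15.1 to 16.8 with agonist, which overlapped the WT vehicle libraries. Zfp948 went from 38.3, 41.7 and 47.2 to 76.7, 80.1 and 96.1 units in WT cells (0.97 ± 0.07, adjusted p = 6.32e-12). Its KO libraries lay at 42.8 to 57.0 with vehicle and 39.1 to 47.4 with agonist. It was 1 of 6 KRAB genes among the 23 that rose, the others being Zfp57, Zfp37, Zfp597, Zfp655 and Zfp568.

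Zfp644, a partner of the histone methyltransferases G9a and GLP, rose from a median of 27.6 to 46.2 scaled units in WT cells (log2 fold change 0.71 ± 0.05, adjusted p = 3.16e-11). Zfp131, a BTB zinc finger factor, rose from 23.6 to 36.4 units (0.65 ± 0.05, adjusted p = 2.54e-11). Zfp37 rose from 12.2 to 17.2 units (0.51 ± 0.07, adjusted p = 1.24e-06), a level that its KO libraries already had at a vehicle median of 17.7. Equal library totals turned the direction of 6 of the 23 rises, those of Zfp106, Zfp275, Zfp516, Zfp568, Zfp598 and Zfp703, and left 13 past the threshold.

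A list of genes with ribosome, RNA and ubiquitin functions was read next. Of its 15 genes, 13 were tested, of which 7 rose (53.8%) and 2 fell (15.4%) in WT cells, against 28.6% of all rows in each direction, with a median log2 fold change of 0.16. The list was drawn up with earlier results of these data known, so its count is no independent evidence, and 0 of its genes were called with agonist in KO cells. Zfp593, an assembly factor of the large ribosomal subunit, rose from 20.5, 25.01 and 28.3 to 40.4, 42.4 and 48.8 scaled units (0.82 ± 0.08, adjusted p = 8.96e-09). Zfp330, a nucleolar protein gene without a finger match, rose from 114, 122 and 129 to 158, 171 and 194 units (0.52 ± 0.06, adjusted p = 1.03e-07). Neither overlapped between the WT groups.

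Zfp622, which acts in late maturation of the large subunit, rose by less (0.26 ± 0.06, adjusted p = 0.00029), as did Zfp326, a splicing and elongation factor (0.25 ± 0.05, adjusted p = 0.000275). Zfp598, the ubiquitin ligase of collided ribosomes, had 0.20 ± 0.07 (adjusted p = 0.0112) and the RNA-binding Zfp106 0.16 ± 0.04 (adjusted p = 0.00284). With equal library totals Zfp622 and Zfp326 were no longer past the threshold, at 0.02 and 0.01, and Zfp106 had -0.08. The list also held Zfp800, without a settled role in RNA, which rose by 0.41 on the log2 scale. The 2 that fell were Zfp346, a double-stranded RNA binder (-0.29 ± 0.06), and Zfp638, which takes part in silencing of retroviral DNA (-0.19 ± 0.06).

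Of a list of 37 better known DNA-binding members, 26 were tested, of which 7 rose (26.9%) and 12 fell (46.2%) in WT cells, with a median log2 fold change of -0.13. The share that rose was near the 28.6% of all rows. Zfp367 and Zfp217 rose, by 0.44 and 0.30, and Zfp217 is a partner of co-repressor complexes. Zfp395, Zfp90, Zfp319, Zfp263 and Zfp608 fell, with log2 fold changes of -0.67, -0.55, -0.51, -0.44 and -0.39. Zfp90 carried a KRAB box although the list was made for factors without one. Zfp384 (0.10 ± 0.06) and Zfp462 (-0.14 ± 0.09) did not pass the test in WT cells.

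All 10 tested genes of a list of imprint and retroelement regulators were called in WT cells, 3 higher (30.0%) and 7 lower (70.0%), against 28.6% of all rows in each direction. The risers were Zfp57, Zfp37 and Zfp568, which represses a placental Igf2 transcript. Zfp445, which like Zfp57 guards imprints, fell slightly, from a median of 45.6 to 40.4 scaled units (log2 fold change -0.19 ± 0.05, adjusted p = 0.00143). Zfp809, which silences murine leukaemia type proviruses, fell from 37.1 to 28.7 units (-0.37 ± 0.08, adjusted p = 0.000285). Zfp873, Zfp456, Zfp961 and Zfp708 had log2 fold changes of -0.85, -0.54, -0.50 and -0.48. The whole length of Zfp708 in 50-base words was shared with another gene model.

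Of 36 genes of the co-repressors that KRAB proteins work with, 34 were tested, of which 9 rose and 9 fell in WT cells, with a median log2 fold change of 0.02. Each count is 26.5%, near the 28.6% of all rows in each direction. Trim28, which the KRAB box binds, was at 355 ± 26.0 scaled units in WT vehicle and 359 ± 15.2 in WT agonist libraries (0.02, adjusted p = 0.72). Setdb1 fell by 0.21 (adjusted p = 0.0055) and its cofactor Atf7ip by 0.65 (adjusted p = 1.3e-07), while genes of the HUSH silencing pathway went both ways: Tasor2, Morc2a, Pphln1 and Tasor rose by 0.46, 0.33, 0.32 and 0.18, and Mphosph8 fell by 0.21. Rbak, which is itself a KRAB zinc finger gene, fell by 0.69.

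Other zinc finger classes gave other counts, against 28.6% of all rows in each direction. Of 32 Zbtb genes, which join a BTB domain to fingers, 7 rose (21.9%) and 15 fell (46.9%, median log2 fold change -0.13). Of 16 Zscan and Zkscan genes, which carry a SCAN domain, 1 rose (6.25%) and 13 fell (81.25%, median -0.42). Of 10 tested Klf genes, which have a short finger array, 8 rose (80%) and 1 fell (10%, median 0.76).

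The 10 most abundant Zfp genes by level per length were mostly genes without KRAB. Zfp330 led at a mean of 144 scaled units, followed by Zfp598 (124), Zfp664 (113), Zfp706 (109), Zfp106 (99.1), Zfp967 (81.5), Zfp185 (73.7), Zfp740 (67.1), Zfp703 (63.8) and Zfp7 (63.7). Zfp664 (log2 fold change 0.05 ± 0.03) and Zfp185, a LIM domain protein gene (-0.05 ± 0.05), did not pass the test in WT cells. Zfp706 (-0.14 ± 0.04), Zfp740 (-0.31 ± 0.10), Zfp967 (-0.40 ± 0.05) and Zfp7 (-0.98 ± 0.06) fell. All 50-base words of Zfp967 were found in other genes, most of all in Zfp966, so its reads may come from another gene.

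In KO cells the same agonist gave few calls. Of the 259 genes, 0 were higher (limma) and 13 lower, which is 5.02% against 4.64% of all rows, and 4.66% of all rows were higher. At an unadjusted p under 0.05 there were 7 higher and 47 lower. The median log2 fold change was -0.06 over the Zfp genes and -0.01 over all rows, and 192 genes (74.1%) had a negative value against 53.0% of all rows. The extremes were -0.34 and 0.26.

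The lower genes in KO cells had small changes. Zfp810 went from 32.7, 34.2 and 39.8 to 26.6, 29.4 and 32.3 scaled units (log2 fold change -0.24 ± 0.05, adjusted p = 0.0146), and these 6 and 6 libraries did not overlap. Zfp931 (-0.28 ± 0.08, adjusted p = 0.035), Zfp7 and Zfp639 (-0.14 ± 0.04, adjusted p = 0.0387) also did not overlap. Zfp931 shared 52.6% of its 50-base words with other genes and may include their reads. Of the 13, 10 had fallen in WT cells, Zfp655 had risen there and Zfp639 and Zfp992 were not called there. The count depended on single libraries. It ran from 1 without KO agonist replicate 1 to 20 without KO agonist replicate 2, where 128 and 954 of all 11557 rows were lower. KO vehicle replicate 6 and KO agonist replicate 2 stood apart in earlier results of these data. Without both, 25 Zfp genes were lower and 9 higher, against 1379 and 1244 of all 11557 rows. With equal library totals 3 Zfp genes were lower and 1 higher, against 318 and 643 of all rows.

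The difference between the WT and KO responses was tested by the interaction, the WT fold change minus the KO fold change. It was negative for 149 genes (57.5%, against 19.6% of all rows) and positive for 21 (8.11%, against 21.5%). Its median was -0.31 over the Zfp genes and -0.02 over all rows. Of the 187 genes that fell in WT cells 148 had a negative interaction, and of the 23 that rose 19 had a positive one. The interaction contains the WT fold change, so these counts follow in part from the WT calls and are no separate evidence. The matching counts over all rows were not made. The smallest adjusted p belonged to Zfp281, with a difference of 0.94 ± 0.07 on the log2 scale (adjusted p = 5.66e-11).

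Among the 10 smallest adjusted p-values, Zfp948 (1.14 ± 0.10), Zfp644 (0.83 ± 0.08) and Zfp131 (0.77 ± 0.07) were positive. Zfp791 (-1.22 ± 0.11), Zfp563 (-0.95 ± 0.10), Zfp12 (-0.87 ± 0.09), Zfp7 (-0.78 ± 0.08), Zfp53 (-0.77 ± 0.08) and Zfp764 (-0.57 ± 0.06) were negative. Zfp764 was a KRAB gene at 16.5 to 17.4 scaled units in WT vehicle and 10.1 to 11.4 in WT agonist libraries, against 13.4 to 15.2 and 13.6 to 14.5 in KO cells. It shared 27.6% of its 50-base words with other genes. Across the 259 genes the WT and KO fold changes had Pearson r = 0.25 and Spearman rho = 0.27, a description over genes that share libraries.

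**Figure D4:**
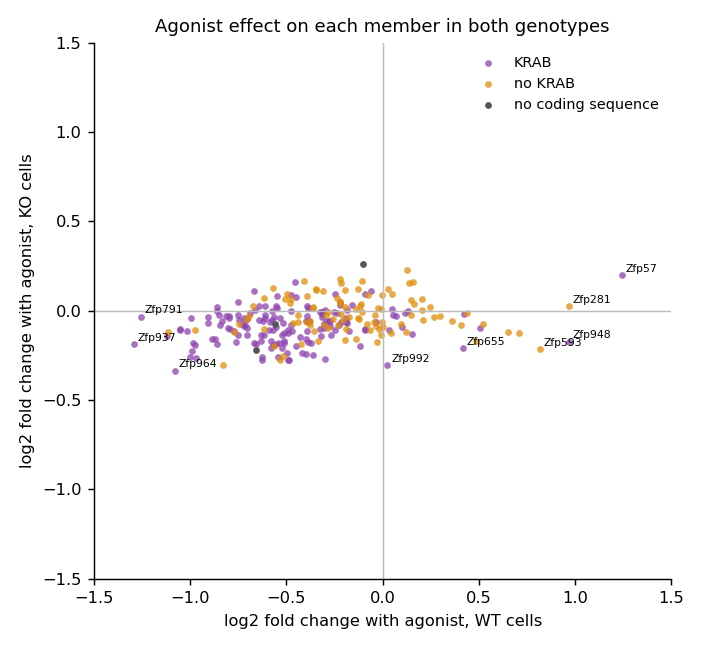
Log2 fold change with agonist in WT cells (horizontal axis) and in KO cells (vertical axis) on equal scales, 1 point per gene for 259 genes, coloured by KRAB class. The points spread from -1.29 to 1.24 along the WT axis and from -0.34 to 0.26 along the KO axis.

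Without agonist, KO and WT cells differed in both directions. In vehicle libraries 66 genes were higher in KO cells (25.5%, against 23.9% of all rows) and 35 lower (13.5%, against 23.9%), with a median log2 difference of 0.06. Zfp13 differed most upward, from 2.17, 2.94 and 3.48 scaled units in WT to 4.28, 5.75 and 6.17 in KO vehicle libraries (0.84 ± 0.11, adjusted p = 5.14e-07). Zfp1, a KRAB gene at a higher level, was at 25.2, 26.4 and 28.6 in WT and 36.5, 37.2 and 41.8 in KO vehicle libraries (0.51 ± 0.05, adjusted p = 4.85e-09). Neither gene overlapped between genotypes, which was a condition of naming them.

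Zfp941, Zfp930, Zfp937, Zfp37, Zfp961 and Zfp462 were also higher in KO vehicle libraries, by 0.78, 0.56, 0.54, 0.54, 0.51 and 0.48 on the log2 scale. Zfp422, without KRAB, was the lowest relative to WT: 21.0, 22.3 and 23.7 scaled units in WT and 10.2, 11.2 and 13.5 in KO vehicle libraries (-0.95 ± 0.06, adjusted p = 4.44e-12). With agonist it was at 9.93 to 12.3 in KO cells. Zfp28, Zfp169, Zfp992, Zfp57 and Zfp637 were also lower in KO cells, with log2 differences of -0.73, -0.70, -0.69, -0.67 and -0.58. Zfp992 shared 43.7% of its 50-base words with other genes, most of all with Zfp991, and may include reads of such genes.

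The counts of genotype differences varied by chromosome. On chromosome 6, 10 of 15 tested Zfp genes were lower in KO vehicle libraries and 0 higher (median -0.28), and 71.3% of all 527 rows there were lower (median -0.33). The lower genes included Zfp422, Zfp637, Zfp384 and Zfp638. On chromosome 8, 10 of 19 were higher and 0 lower (median 0.16), and 55.3% of all 631 rows there were higher (median 0.17), with Zfp1, Zfp930 and Zfp961 among the Zfp genes.

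Chromosome 13 was different: 48.8% of its 414 rows were lower in KO cells (median -0.18), while 6 of 23 Zfp genes were higher and 3 lower (median 0.10). All 14 genes of the cluster from Zfp712 to Zfp273 lie there, 4 of them higher and 0 lower. The labels give no copy number, and its part in these values was not tested. Markers also differed between the genotypes with vehicle: Aqp2 was higher in KO cells by 2.29 and Slc12a3 by 2.77 on the log2 scale, and Scnn1b had -1.83.

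**Figure D5:**
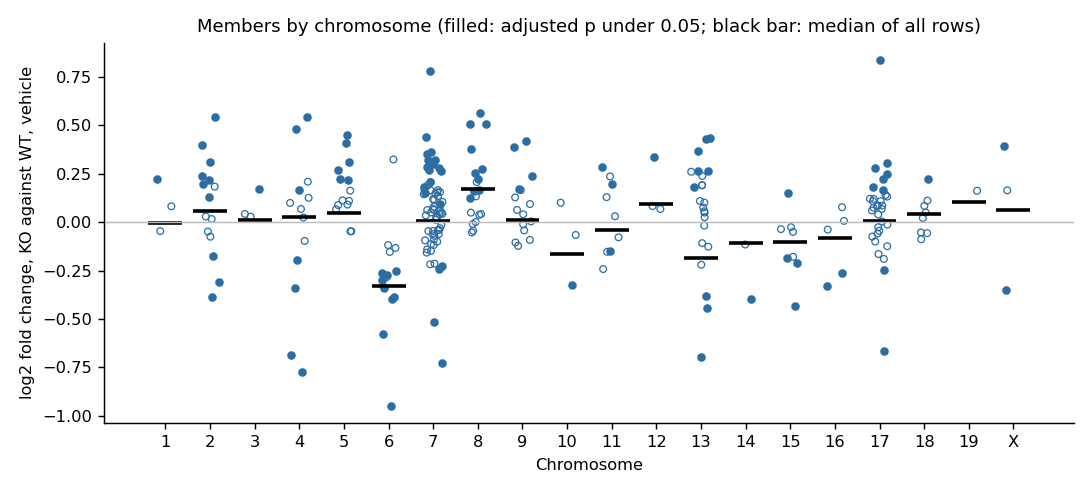
Log2 difference between KO and WT vehicle libraries (vertical axis) for each of 259 Zfp genes by chromosome (horizontal axis), filled where the adjusted p was under 0.05, with a black bar at the median of all tested rows of that chromosome. Genes on chromosome 6 lie mostly below 0 around a bar at -0.33, and those on chromosome 8 mostly above 0 around a bar at 0.17.

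With agonist in both genotypes, 174 genes were higher in KO than in WT cells (67.2%, against 32.0% of all rows) and 26 were lower (10.0%, against 32.1%), with a median log2 difference of 0.34. This comparison shares its WT agonist libraries with the WT response above and its KO agonist libraries with the KO response. Zfp937 had the largest upward difference (1.65 ± 0.09, adjusted p = 7.12e-14), from an agonist median of 5.72 scaled units in WT to 19.9 in KO cells. Zfp791, Zfp442, Zfp13 and Zfp941 followed at 1.36, 1.35, 1.31 and 1.26. Zfp759, Zfp975 and Zfp3 had 1.18, 1.13 and 1.13, and Zfp975 shared 41.8% of its 50-base words with other genes.

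Zfp57 had the largest downward difference, from 12.1 scaled units in WT to 3.52 in KO agonist libraries (-1.71 ± 0.16, adjusted p = 1.27e-09). Zfp992, Zfp593, Zfp281, Zfp948 and Zfp993 had -1.02, -1.01, -0.99, -0.96 and -0.90, and Zfp422 and Zfp217 had -0.81 and -0.71. Zfp993 shared 86.8% of its 50-base words with other genes, most of all with Zfp991, so its reads may come from such genes. Zfp422 and Zfp992 were thus low in KO cells with and without agonist, whereas Zfp281, Zfp593 and Zfp948 had vehicle differences of -0.05, 0.02 and 0.18.

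RNA half-lives were not measured, and the labels do not say whether reads were counted by strand, so overlapping, antisense and near-identical genes could share reads. Over the 259 genes the WT fold change had Spearman rho = 0.41 with the mean level, 0.22 with gene length and -0.28 with the number of fingers (256 genes), given as descriptions. The median length of the 264 genes was 3919.5 bases, against 3590 for all rows.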

How the data were processed

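RNA was measured in 24 poly(A) libraries, 6 per group, grouped by the sample titles. The authors deposited 1 table of signal values per gene and library, divided by gene length; STAR 2.7.8a, DESeq2, DESeq and GRCm39 are named in the submitters' processing notes, without roles. The deposited signal times gene length and a library factor (0.754 to 1.46) gave whole reads within 0.1 for at least 99.9% of values. Values were multiplied by 92.1, rows with a mean under 1 scaled unit were dropped, and log2(scaled units + 0.5) was fitted with limma 3.58.1 (trend and robust, 1 term per group, 20 residual degrees of freedom; R 4.3.3) after a test on simulated data. Calls are at a Benjamini-Hochberg adjusted p under 0.05 over all 11557 rows.

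Members and lists were chosen with earlier results of these data known. Named genes were up to 8 highest and 8 lowest called genes without overlap per contrast (10 for the interaction), the 10 most abundant, and called genes of the lists. SCAN domains and fingers (a fixed sequence pattern for each) and KRAB boxes (a 40-residue weighted profile, score above 0) were sought in translated GENCODE coding sequences of GRCm38, in 261 genes. Promoters came from RefSeq GRCm38.p6. These positions are not on the build of the expression table. Alternatives covered scaling, filter, pseudocount, moderation, libraries, voom on recovered reads and a replicate block. Same-numbered libraries showed mixed correlations of their deviations from the group mean (from -0.28 to 0.49, both between the WT arms). Numbers were not used as pairs in the main fit. Library numbers ran by group, so order and treatment cannot be told apart.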

Additional observations from a re-analysis of the deposited data

Results flagged for a closer look

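In 68 groups of 6 libraries checked for a library far from the others, 5 held one, and chance alone gives about 1 in 20. KO vehicle replicate 6 held 0.802% of its reads on Zfp genes, against 0.739% in the nearest library of its group. The same library had 28.8 scaled units of Zfp937 (nearest 21.6) and 12.2 of Zfp442 (nearest 10.1). WT vehicle replicate 1 had 7.71 scaled units of Zfp57 (nearest 5.13), and KO agonist replicate 6 had 7.93 of Zfp3 (nearest 7.30).

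The agonist effect in WT minus that in KO cells, tested by the interaction in limma, was negative for 149 and positive for 21 of 259 genes. The 10 with the smallest adjusted p had log2 differences of 0.94 for Zfp281, 1.14 for Zfp948, 0.77 for Zfp131, 0.83 for Zfp644, -1.22 for Zfp791, -0.57 for Zfp764, -0.78 for Zfp7, -0.87 for Zfp12, -0.77 for Zfp53 and -0.95 for Zfp563. For these 10 genes the 6 agonist and 6 vehicle libraries of WT cells did not overlap. The interaction uses the same libraries, so this is no separate evidence. Among all rows, 19.4% were called higher and 17.3% lower without overlap in WT cells.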

How the results depend on the processing

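With equal library totals, 13 genes rose in WT cells (in place of 23), 12 had a positive interaction (21) and 15 were lower in KO than WT cells with agonist (26), while 1 rose and 3 fell with agonist in KO cells (0 and 13). The signs of Zfp106 with agonist in WT cells (-0.0787), Zfp326 in the interaction (-0.0507), and Zfp638 (0.10) and Zfp346 (0.11) in KO against WT with agonist turned. So did those of Zfp275, Zfp513 and Zfp516 in the interaction and of Zfp212, Zfp367, Zfp516 and Zfp867 in KO against WT with agonist, where Zfp212 was called higher (0.157) in place of lower. All 187 falls in WT cells were also called under this scaling. Quantile scaling gave 1 higher gene with agonist in KO cells. Leaving out KO vehicle 6 and KO agonist 2 gave 9 higher and 25 lower there, against 1244 and 1379 of all 11557 rows.

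Leaving out 1 library at a time gave 181 to 187 falls and 22 to 24 rises in WT cells, 1 to 20 falls and 0 to 3 rises in KO cells, 141 to 169 negative and 19 to 22 positive interactions. KO against WT ran from 59 to 73 higher and 33 to 44 lower with vehicle, and from 171 to 177 and 25 to 27 with agonist. With a replicate block, 22 genes rose and 186 fell in WT cells, 0 and 13 in KO cells, and the interaction was positive for 22 and negative for 149. No fit of the interaction on the compared groups alone exists, since it uses all groups. Low genes are limited by depth: fold changes there are shrunk by the added 0.5.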
